A study of Mus musculus with 30 samples.

Results

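Quadriceps muscle of mice on low fat and high fat diets was sorted here by the neutrophil gene S100a8. The arrays were chosen by the linear intensity of the S100a8 entry: 17 of the 30 arrays read above 100 and are called S100a8-high, and the other 13 read 100 or below and are called S100a8-low. The classes therefore come from a measured value and not from the labels. Every mouse was a male of the strain C57BL/6J (spelled C56BL/6J in the labels), and 1 mouse gave 1 array. All mice had a growth diet for 3 weeks and then a low fat run-in diet for 3 weeks. The LF day 0 mice were killed at 12 weeks of age after that run-in. The LF day 56 mice stayed on the low fat diet and the HF day 56 mice ate a high fat diet, both for 56 days, and were 20 weeks old. Each group held 10 arrays, made from total RNA of the dissected, snap-frozen muscle. The deposited value of a gene is a linear intensity, and a reading under 20 lies near background here.

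Bone marrow makes the cells of the blood. Granulocyte precursors there fill granules in waves, first with proteases and peroxidase, later with antimicrobial proteins, and mature neutrophils then circulate and carry the calcium-binding pair S100a8 and S100a9. Red cell precursors divide in the marrow, build haem and globin, and exchange their surface proteins before they leave. Bone and cartilage have matrix proteins of their own, and limb muscle attaches to bone through tendon.

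S100a8 itself is given as a description with no test, since it made the classes. It read 342.6 at the lowest, 983.0 at the median and 4031.3 at the highest in the S100a8-high arrays, and 5.1, 6.6 and 11.9 in the S100a8-low arrays. No array lay between 11.9 (HF day 56 replicate 9) and 342.6 (LF day 56 replicate 8), so a threshold of 50 or of 200 gave the same classes. The S100a8-high class held 7 LF day 0, 4 LF day 56 and 6 HF day 56 arrays, and the S100a8-low class 3, 6 and 4. An exact test of the class over the 3 groups gave a two-sided p of 0.531 (10 arrays in each group).

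The arrays were parted here, with no label for it, at the widest gap in the log2 ratio of 5' to 3' signal of the spike-in control RNAs, between -1.49 and -1.27, which put 9 arrays in a raised spike-in set. That set held 5 S100a8-high and 4 S100a8-low arrays, against 12 and 9 in the main set (Fisher's exact test, two-sided p = 1.0). This pooled test does not show the spread within groups, which was uneven. The raised set held 3 S100a8-high and 0 S100a8-low arrays of LF day 0, 0 and 3 of LF day 56, and 2 and 1 of HF day 56. The number of entries above an intensity of 20 was 6467 ± 52.0 (SD, n = 17) in the S100a8-high and 6446 ± 42.8 (SD, n = 13) in the S100a8-low arrays (permutation test, p adjusted over 4 array measures = 0.336). Array median intensity was 9.24 and 9.12 (adjusted permutation p = 0.0606) and the spike-in ratio did not pass (adjusted permutation p = 0.857). Log2 Myh7, a slow muscle fibre gene, was 7.30 ± 2.19 (SD, n = 17) against 4.62 ± 2.38 (SD, n = 13; adjusted permutation p = 0.0175), and its part in the results below was tested only as a covariate.

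Between the classes, with the group as a block, 185 of 16475 entries were higher in the S100a8-high arrays and 7 were lower at an adjusted p below 0.05 in limma. These are 1.12% and 0.0425% of all entries tested, and the shares of gene lists below are read against them. S100a8, which made the classes, and genes of the neutrophil lists are among the higher entries and in the counts that follow. Their place there is no result, as the classes were chosen by these cells. The median difference of all entries was -0.0070 on the log2 scale, where 1 unit is a 2-fold change, and 46.1% of entries lay above 0. Of the higher entries 87 differed by at least 1.5-fold and 46 by at least 2-fold, and 0 of the lower ones reached 1.5-fold. In 29 entries, 0.176% of all, every S100a8-high array read above every S100a8-low array, and in 0 entries was it the other way round. Of the 192 entries that passed, 120 had a mean intensity below 20 in both classes, so their differences rest on readings near background and may be understated. The difference had the same sign in each of the 3 groups for 183 of the 185 higher entries. These entries were picked by a fit over the same arrays, so this agreement is no separate check. As these are bulk samples, fewer cells of a type and less RNA per cell cannot be told apart.

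**Figure D1:**
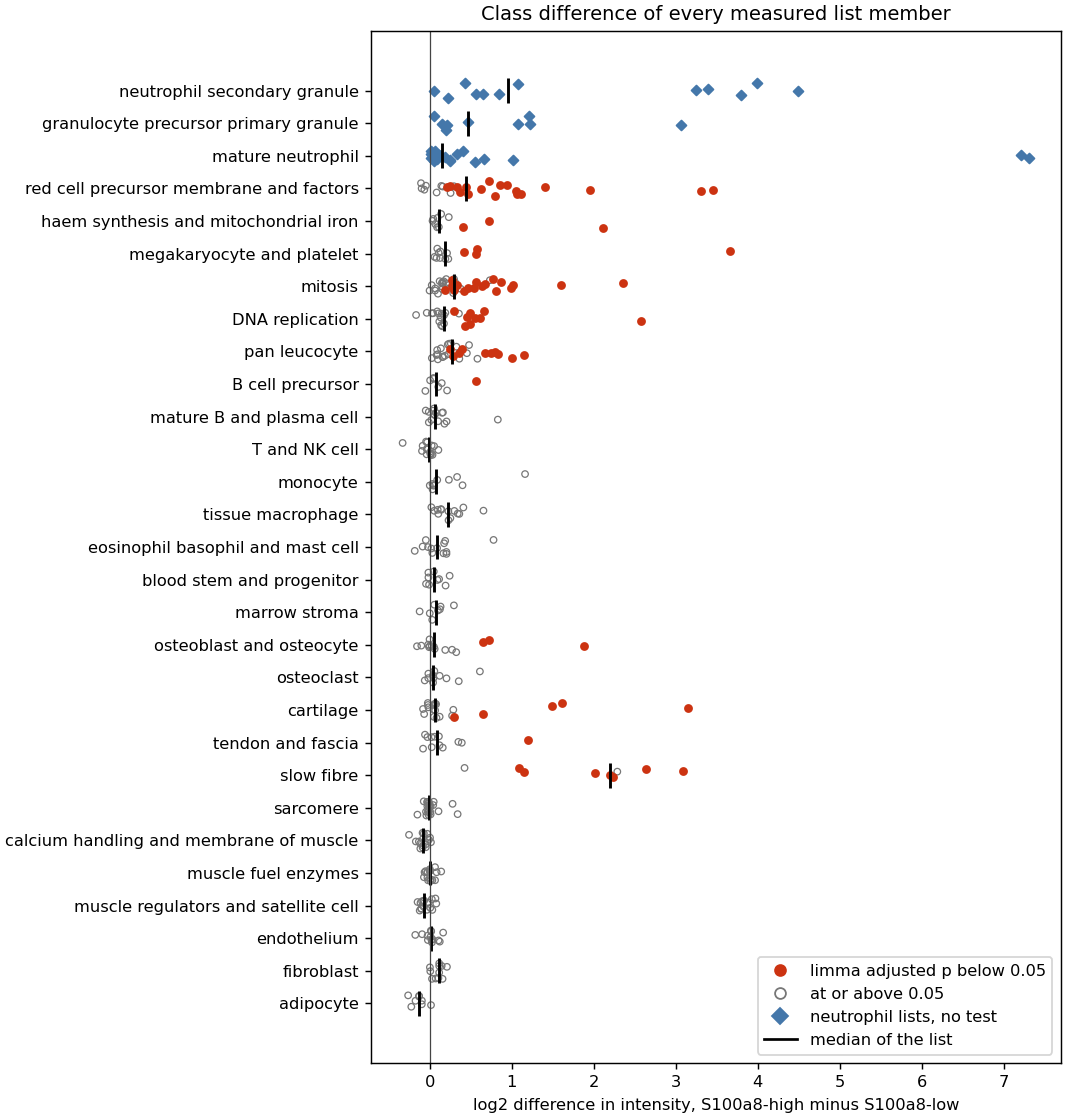
Log2 difference between the S100a8 classes (horizontal axis) for every measured member of 29 of the gene lists (rows); filled circles passed limma at an adjusted p below 0.05, open circles did not, diamonds are neutrophil lists with no test, and bars are list medians. Red cell precursor, cell cycle and slow fibre lists hold most of the filled circles, and the sarcomere, calcium handling, fuel enzyme and regulator lists of muscle hold none.

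The neutrophil genes measure the cells S100a8 was picked for, and are likewise described without a test. S100a9, the partner of S100a8 in calprotectin, read 323.5 to 5314.6 (median 1018.1) in the S100a8-high arrays and 5.4 to 8.2 (median 6.7) in the S100a8-low arrays. Genes of the secondary granules, which neutrophils fill late in the marrow, followed. Ngp, the neutrophilic granule protein, read 40.4 to 1691.5 (median 167.3) against 5.8 to 9.3. Camp, the cathelicidin peptide, read 10.8 to 824.0 (median 65.3) against 3.7 to 6.0. Neither gene overlapped between the classes, and Chil3, a chitinase-like protein, Ltf, the iron-binding lactoferrin, and Lcn2, which binds bacterial siderophores, did not overlap either. Their log2 differences were 3.79 for Chil3, 3.39 for Ltf and 3.25 for Lcn2. The 12 measured members of this list had a median difference of 0.96.

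Primary granule genes are transcribed in promyelocytes, early granulocyte precursors, and are silent in mature neutrophils. Mpo, the myeloperoxidase, read 6.9 to 284.4 (median 17.8) in the S100a8-high arrays and 2.9 to 4.0 in the S100a8-low arrays, with no overlap. Ctsg, Prtn3 and Elane, the 3 serine proteases of these granules, differed by 1.08, 1.22 and 1.21 on the log2 scale, with overlap and with medians of 7.7, 15.2 and 7.4 in the high class. The highest readings were 27.7 for Ctsg, 81.6 for Prtn3 and 67.2 for Elane. HF day 56 replicate 2, which had the highest S100a8, also had the highest Camp and Mpo.

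Several genes of mature neutrophils did not separate the classes in the same way. Csf3r, the receptor for granulocyte colony-stimulating factor, read 6.2 to 15.8 in the high class and 6.6 to 8.9 in the low class. Cxcr2, a chemokine receptor by which mature neutrophils leave the marrow, read 3.5 to 7.3 against 3.1 to 9.8, and the median of the high class (5.1) lay below that of the low class (5.3). Mmp8, the neutrophil collagenase, reached 71.8 in the high class from a median of 5.4, and stayed at or below 4.5 in the low class. All 20 measured genes of the mature neutrophil list, S100a8 among them, had a fitted difference above 0, with a list median of 0.15. Of these 20 genes, 17 had medians under 20 in both classes, so their order says little.

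**Figure D2:**
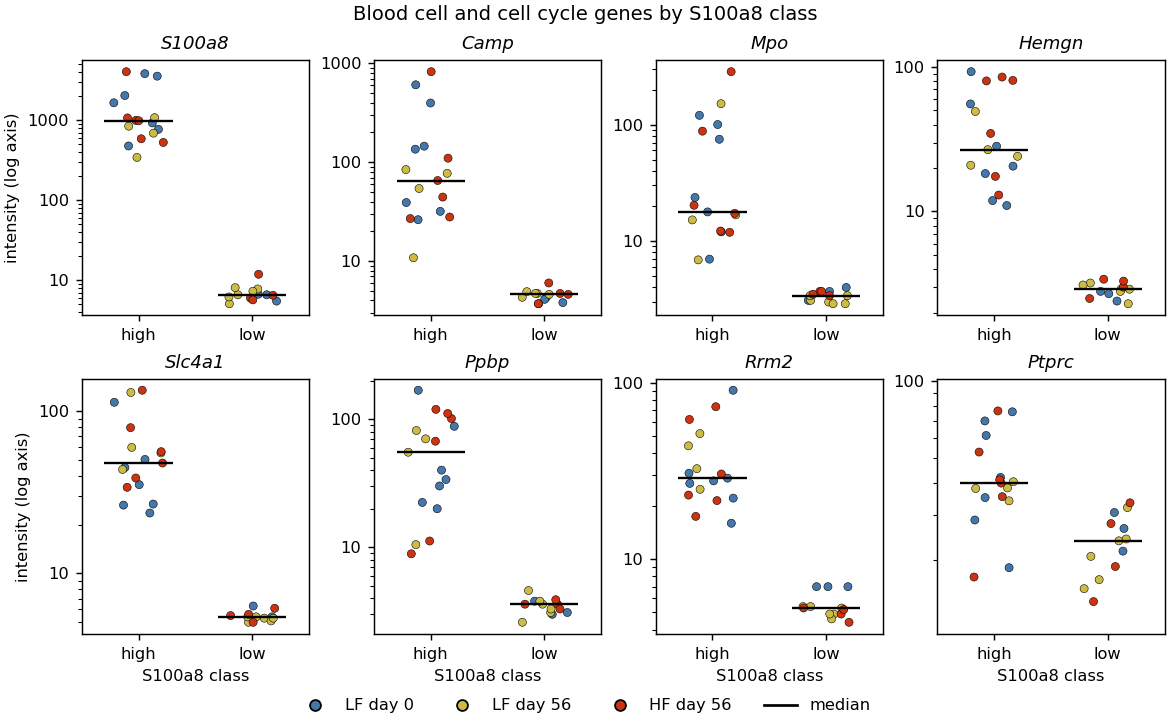
Intensity (vertical log axis, with its own range in each panel) of 8 genes on every array, by S100a8 class and coloured by group, with the class median as a bar. S100a8, Camp, Mpo, Hemgn, Slc4a1, Ppbp and Rrm2 do not overlap between the classes, whereas Ptprc reads 17.1 to 76.5 in the high and 13.7 to 33.4 in the low class.

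Genes of red cell precursors were higher in the S100a8-high arrays for most of the list. Of 27 measured genes for the membrane and the transcription factors of red cell precursors, 18 were higher in the S100a8-high arrays and 0 were lower, against 1.12% and 0.0425% of all entries. The list median was 0.44 and 7 genes did not overlap between the classes. Slc4a1, the anion exchanger band 3, read 23.6 to 134.9 (median 48.0) in the high class and 5.0 to 6.3 (median 5.4) in the low class, a log2 difference of 3.31 ± 0.21 (SE; limma adjusted p = 8.23e-13). Hemgn, a nuclear protein of blood precursors, read 11.0 to 92.8 (median 26.8) against 2.3 to 3.4, a difference of 3.46 ± 0.28 (SE; limma adjusted p = 5.08e-10). Both genes were low on every S100a8-low array and raised on every S100a8-high array, in all 3 groups.

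Other surface proteins of these cells lay lower on the scale. Rhag, the Rh-associated glycoprotein, read 6.2 to 32.3 against 2.4 to 4.1, and Ermap, an erythroblast membrane protein, read 6.6 to 15.6 against 3.3 to 4.7. Their differences were 1.96 ± 0.17 and 1.40 ± 0.11 (SE; limma adjusted p = 2.42e-09 and 1.13e-10). The transcription factors of red cell precursors were near background in both classes: Klf1 had medians of 6.2 and 3.7, Gata1 8.6 and 6.6, and Tal1 7.1 and 5.3, and all 3 passed. Members that did not pass were led by Epor, the erythropoietin receptor (difference 0.25, limma adjusted p = 0.0556), and included Ank1, an ankyrin that muscle also makes, at 705.8 to 1199.7 in the high and 796.0 to 1314.5 in the low class.

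In haem synthesis the gene specific to red cell precursors stood apart. Alas2, which makes the first haem precursor in red cells, read 22.1 to 84.8 (median 51.0) in the high class and 9.5 to 17.2 (median 11.3) in the low class, a difference of 2.11 ± 0.15 (SE; limma adjusted p = 1.77e-11). Slc25a37, the mitochondrial iron importer mitoferrin, read 199.4 to 397.8 against 138.9 to 191.0, again without overlap, a difference of 0.72 ± 0.08 (SE; limma adjusted p = 7.75e-07). Ppox, a late enzyme of the pathway, also passed (0.40, limma adjusted p = 0.0318), and kept its call in 20 of 30 fits that left out 1 array each. The other 8 of the 11 measured genes did not pass. Fech, the last enzyme, which every tissue uses, had medians of 916.5 and 903.0. The 3 embryonic globins measured were near background, between 2.6 and 4.9, in both classes.

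The promoters of 3 red cell precursor genes that were higher in the S100a8-high arrays are shown as examples, and all 3 hold the letters searched for. RefSeq windows of 300 bases, 250 before and 50 after the start of transcription, were taken from the build GRCm38.p6, written 5' to 3' on the strand of the gene, and searched for AGATAA or TGATAA on either strand, that is also for TTATCT and TTATCA, letters that GATA factors are known to bind. Overlapping matches were counted separately. Capitals mark the matches. The window of Hemgn lies at chr4:46404134-46404433 on the minus strand, with matches whose first bases lie at -13 and 28 from the start, which is counted as 0. The window of Alas2 lies at chrX:150547167-150547466 on the plus strand, with a match at -86. The window of Klf1 lies at chr8:84901732-84902031 on the plus strand, with a match at -80.
Hemgn: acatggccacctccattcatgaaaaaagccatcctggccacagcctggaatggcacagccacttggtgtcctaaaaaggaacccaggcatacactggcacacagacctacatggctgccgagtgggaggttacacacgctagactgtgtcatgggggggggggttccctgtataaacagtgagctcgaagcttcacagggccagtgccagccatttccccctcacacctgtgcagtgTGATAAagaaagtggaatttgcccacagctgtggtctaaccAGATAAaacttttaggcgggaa
Alas2: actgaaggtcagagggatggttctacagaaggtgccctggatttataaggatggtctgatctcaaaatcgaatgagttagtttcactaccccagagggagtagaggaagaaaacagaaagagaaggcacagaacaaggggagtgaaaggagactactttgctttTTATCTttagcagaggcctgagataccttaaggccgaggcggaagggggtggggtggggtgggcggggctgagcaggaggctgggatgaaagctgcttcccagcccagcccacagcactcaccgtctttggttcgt
Klf1: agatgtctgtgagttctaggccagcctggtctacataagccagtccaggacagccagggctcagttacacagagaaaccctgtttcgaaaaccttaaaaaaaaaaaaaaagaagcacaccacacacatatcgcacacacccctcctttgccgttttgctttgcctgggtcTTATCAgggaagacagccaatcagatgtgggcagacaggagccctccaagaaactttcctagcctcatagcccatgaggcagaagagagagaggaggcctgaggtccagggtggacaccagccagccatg

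Of the 21 haem and red cell genes that passed, 15 had a window and 11 of these (73.3%) held a match. The windows of Blvrb, Gata1, Ppox and Tspo2 held none. Of the 17 measured that did not pass, 15 had a window and 3 (20.0%) held one. With 1 window, the one listed first, taken for each gene, the share was 19.0% over 27025 genes in RefSeq and 12.4% over 12585 measured genes. A match is a run of letters and does not show that a factor binds there, and binding was not measured.

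Platelet genes gave fewer calls. Of 13 measured genes of megakaryocytes and platelets, 4 passed, all higher, with a list median of 0.19. Ppbp, the platelet basic protein, read 8.9 to 168.1 (median 55.2) in the high class and 2.6 to 4.6 (median 3.6) in the low class, a difference of 3.67 ± 0.37 (SE; limma adjusted p = 5.67e-08), with no overlap. Pf4, platelet factor 4, was bright in both classes, at 191.0 to 462.2 against 168.6 to 352.0 (0.57 ± 0.12, SE; limma adjusted p = 0.00864). Clec1b, a platelet receptor for podoplanin, and Gp1bb, a subunit of the von Willebrand factor receptor, passed with medians under 5. The call of Gp1bb held in 16 of 30 fits that left out 1 array each.

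Cell cycle genes were also higher. Of 40 measured genes of mitosis, 18 passed and were higher (list median 0.29), and of 24 genes of DNA replication, 9 did (0.17), with 0 lower in both lists. Rrm2, the small subunit of ribonucleotide reductase, read 16.0 to 90.6 (median 28.8) in the high class and 4.4 to 7.0 (median 5.3) in the low class, a difference of 2.58 ± 0.21 (SE; limma adjusted p = 2.92e-10). Mki67, the proliferation antigen Ki-67, read 5.1 to 111.9 (median 33.4) against 3.7 to 10.7 (median 5.8), a difference of 2.35 ± 0.35 (SE; limma adjusted p = 6.43e-05). Rrm2 did not overlap between the classes, whereas some S100a8-high arrays read as low for Mki67 as the S100a8-low arrays, among them HF day 56 replicate 4 at 5.1.

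Ube2c, a ubiquitin-conjugating enzyme that serves the exit from mitosis, and Birc5, the chromosomal passenger survivin, did not overlap either, at medians of 11.2 against 4.0 and 6.5 against 3.2. Mcm7, a subunit of the replicative helicase, read 28.8 to 69.9 against 20.9 to 33.9 (0.65 ± 0.10, SE; limma adjusted p = 0.000167). Top2a, the topoisomerase of dividing cells, did not pass (0.73, limma adjusted p = 0.0606), and its median was 5.0 against 3.2. Medians of 37 of the 40 mitosis genes lay under 20 in both classes.

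Some genes shared by most white blood cells were higher as well. Of 28 measured, 10 passed and were higher, with a list median of 0.27 and with overlap in every gene. With log2 intensity of the slow myosin gene Myh7 in the fit, 1 of the 28 passed. Fermt3, the integrin activator kindlin-3 of blood cells, read 7.5 to 18.4 against 5.5 to 7.9 (0.83 ± 0.11, SE; limma adjusted p = 6.75e-06). Ptprc, the white cell antigen CD45, read 17.1 to 76.5 (median 39.9) against 13.7 to 33.4 (median 23.7), a difference of 0.79 ± 0.20 (SE; limma adjusted p = 0.0318), and kept its call in 21 of 30 fits that left out 1 array each. The count of 10 was 6 without LF day 56 replicate 9 and without HF day 56 replicate 5.

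The listed markers of other blood cells did not pass as single genes, and no list was tested as a set. No gene passed of 14 mature B and plasma cell, 16 T and NK cell, 10 monocyte, 14 tissue macrophage or 13 eosinophil, basophil and mast cell genes, with list medians of 0.07, -0.01, 0.07, 0.23 and 0.09. In the same order 11, 8, 9, 14 and 9 members had a difference above 0, against 46.1% of all entries. The widest were Plac8 of monocytes (1.16, limma adjusted p = 0.0532) and Jchain of plasma cells (0.83, limma adjusted p = 0.173). Jchain, the joining chain of antibodies, was highest on an S100a8-low array, at 34.8. Outside the lists, the antibody genes Igkc (2.35 ± 0.59, SE; limma adjusted p = 0.0387) and Igha (0.90 ± 0.19, SE; limma adjusted p = 0.0063) were higher. Igkc read 7.1 to 434.8 in the high class and 4.7 to 352.8 in the low class, so the classes overlapped over almost their whole range.

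The label of marrow cells was checked against further markers. Of 8 measured genes of B cell precursors, which also live in marrow, Myb passed (0.56 ± 0.10, SE; limma adjusted p = 0.00101), a transcription factor of many blood precursors. The defining genes Vpreb1, Vpreb3, Rag1, Rag2 and Dntt read at most 7.9 on any array and did not pass. None of 9 stem and progenitor genes, 8 marrow stroma genes or 11 osteoclast genes passed, with list medians of 0.05, 0.08 and 0.04. Kit, the stem cell factor receptor, had medians of 5.6 and 5.5, and Cxcl12, the chemokine of marrow stroma, 127.0 and 113.6. Since few of these further markers passed, the arrays are named only by S100a8. Many of these markers read near background, where differences may be understated.

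Genes of bone matrix were higher in part. Of 15 measured osteoblast and osteocyte genes, 3 passed, all higher, with a list median of 0.05. Ibsp, the bone sialoprotein, read 6.1 to 123.6 (median 12.0) in the high class and 3.3 to 4.9 (median 3.9) in the low class, a difference of 1.88 ± 0.25 (SE; limma adjusted p = 1.31e-05), without overlap. Omd, the keratan sulfate proteoglycan osteomodulin, read 17.5 to 40.1 against 9.3 to 29.9 (0.73 ± 0.11, SE; limma adjusted p = 7.29e-05). Dmp1, a matrix protein of osteocytes, read 4.7 to 12.5 against 3.5 to 5.3 (0.64 ± 0.11, SE; limma adjusted p = 0.000661). Sp7, the osteoblast transcription factor osterix, had medians of 5.4 and 4.9 (limma adjusted p = 0.904). Acp5 and Ctsk, enzymes of osteoclasts, had medians of 42.3 against 24.7 and 25.0 against 19.5, with limma adjusted p of 0.178 and 0.295.

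Of 21 measured cartilage genes 5 passed, all higher, with a list median of 0.06. Cytl1, a secreted protein of cartilage, read 27.0 to 129.3 (median 65.5) in the high class and 4.6 to 11.1 (median 7.9) in the low class, a difference of 3.15 ± 0.19 (SE; limma adjusted p = 4.44e-13). Col2a1, the main collagen of cartilage, read 6.9 to 126.3 (median 14.0) against 4.3 to 6.7 (median 5.0), a difference of 1.61 ± 0.25 (SE; limma adjusted p = 0.000108). Neither gene overlapped between the classes. Chad, the adhesion protein chondroadherin, was bright in both, at 96.3 to 360.4 against 34.5 to 159.2 (1.49 ± 0.17, SE; limma adjusted p = 9.59e-07). Snorc, a chondrocyte proteoglycan, and Acan, aggrecan, passed with medians under 10. Acan kept its call in 20 of 30 fits that left out 1 array each, and Snorc in 30. Sox9, the cartilage transcription factor, and the cartilage collagens Col9a1, Col9a2, Col9a3 and Col10a1 read at most 9.1 and did not pass.

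Of 12 tendon and fascia genes, Comp, a matrix protein of cartilage and tendon, passed, at 65.9 to 231.3 against 28.0 to 88.6 (1.20 ± 0.15, SE; limma adjusted p = 4.16e-06). Tnmd, the tendon protein tenomodulin, read 235.9 to 595.3 against 205.4 to 741.0 and Scx, the tendon transcription factor scleraxis, 43.0 to 105.2 against 56.0 to 104.3, and neither passed. None of 11 fibroblast, 13 endothelial or 8 adipocyte genes passed, with list medians of 0.11, 0.02 and -0.13.

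Ibsp and Col2a1 also differed by group among the S100a8-high arrays. Ibsp read 14.7 to 123.6 (median 39.6) on the 7 LF day 0, 6.1 to 11.1 (median 8.25) on the 4 LF day 56 and 6.6 to 16.7 (median 9.35) on the 6 HF day 56 arrays. Col2a1 read 16.9 to 126.3, 7.3 to 9.8 and 6.9 to 19.9 in the same order. On the S100a8-low arrays both genes stayed at or below 6.7 in every group. On the S100a8-high arrays LF day 0 had the highest median in both, LF day 56 did not overlap with it, and the upper end of HF day 56 did. S100a8 itself had the same order, with medians of 1648.7, 764.7 and 988.75 on the high arrays of LF day 0, LF day 56 and HF day 56. The class in the fit below does not hold this level. Cytl1 showed no such order, with medians of 52.2, 64.7 and 85.05 on the high arrays of the 3 groups.

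With the class in the fit, Ibsp was lower by 1.52 ± 0.31 (SE; limma adjusted p = 0.00853) and Col2a1 lower by 1.47 ± 0.30 (SE; limma adjusted p = 0.01) at LF day 56 than at LF day 0, both on the log2 scale. In that comparison 0.674% of all entries passed. Of the 15 osteoblast and 21 cartilage genes 4 passed, all lower, the others being Omd and Col11a1, a minor cartilage collagen. The fall was not particular to bone and cartilage, as 5 of 11 fibroblast and 4 of 12 tendon and fascia genes also passed and were lower. These comparisons between groups were part of earlier results on these data. In the direct test of whether the class difference depended on the group, 0 of 16475 entries (0%) passed the limma F test of the interaction, and 1309 had an unadjusted p below 0.05. Col2a1 and Ibsp were among the 5 entries of smallest p, with a limma adjusted p of 0.624, beside Gipr, Pxmp4 and Klhl4. Without LF day 0 replicate 7, 2 entries passed.

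**Figure D3:**
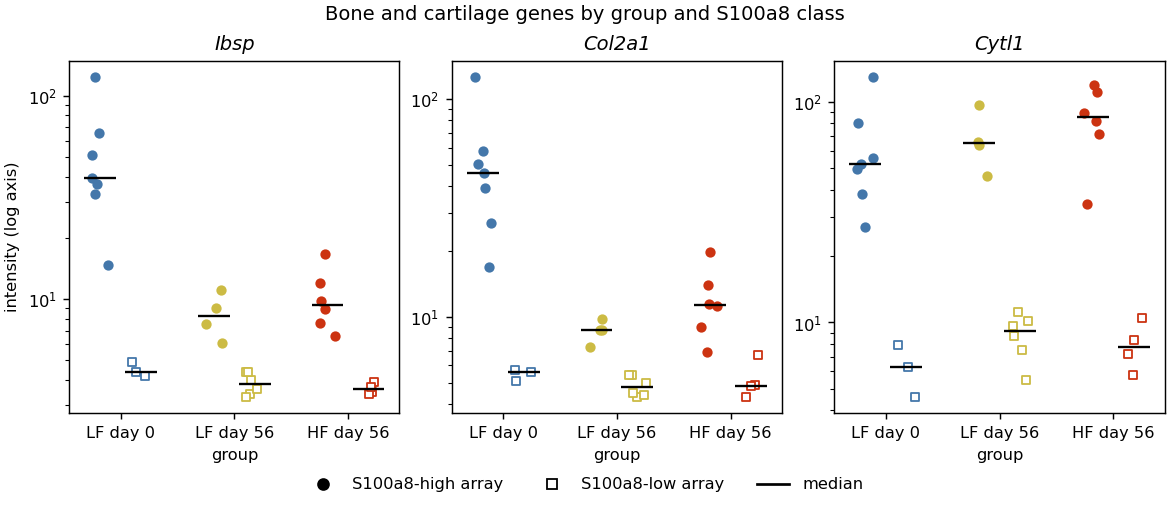
Intensity (vertical log axis) of Ibsp, Col2a1 and Cytl1 in the 3 groups, with filled circles for S100a8-high arrays, open squares for S100a8-low arrays and bars for medians. Ibsp and Col2a1 have their highest medians on S100a8-high arrays of LF day 0, at 39.6 and 45.9, and Cytl1 is high on the S100a8-high arrays of every group.

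Within the 17 S100a8-high arrays, 8 pairs of genes were compared to see whether the cell types rose by like amounts. Ibsp and Col2a1 correlated over log2 intensity at Pearson r = 0.942 (permutation p adjusted over 8 pairs = 8e-05) and Spearman rho = 0.896 (adjusted p = 0.00016). Without the 2 arrays farthest from the median of Ibsp r was 0.921, with group means taken off 0.776, and within the 12 arrays of the main spike-in set 0.973. The raised set holds 5 of these arrays, too few for a value of its own. The raw permutation p of 1e-05 is the smallest that the resamples can give.

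The pair of Camp, a granule gene, and Hemgn, of red cell precursors, did not pass. They correlated at r = -0.0021 (permutation p adjusted over 8 pairs = 0.994) and rho = 0.1005, at 0.234 without the 2 arrays farthest from the median of Camp, and at 0.256 within the main set. LF day 0 replicate 9, for example, had Camp at 606.9 and Hemgn at 11.0, the lowest Hemgn of the class, and LF day 56 replicate 8 had Camp at 10.8 and Hemgn at 49.2. Camp and Mpo correlated at 0.578 (adjusted p = 0.0619; rho = 0.493, adjusted p = 0.189), and at 0.271 without the 2 arrays farthest from the median of Camp. The other 5 pairs, of Camp with Top2a, Ibsp and Col2a1 and of Hemgn with Top2a and Ibsp, had r between 0.0411 and 0.414 and adjusted p of 0.224 to 0.994.

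**Figure D4:**
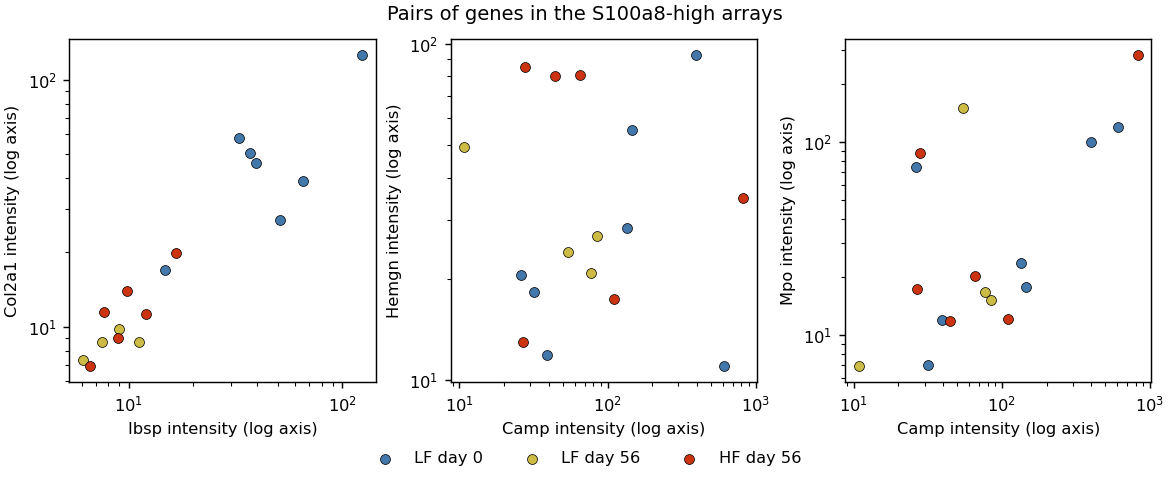
Intensities (both axes log) of 3 pairs of genes on the 17 S100a8-high arrays, coloured by group. Ibsp and Col2a1 rise together (r = 0.942), whereas r was -0.0021 for Camp and Hemgn and 0.578 for Camp and Mpo.

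Most muscle genes did not pass the test between the classes. None of 24 sarcomere, 16 calcium handling and membrane, 17 fuel enzyme or 16 regulator and satellite cell genes passed in either direction, with list medians of -0.01, -0.08, 0.00 and -0.07. Acta1, the skeletal muscle actin, read 27460.4 to 30444.6 in the high and 26777.9 to 30599.0 in the low class, a difference of 0.0048 with a 95% interval of -0.05 to 0.06. Ckm, the muscle creatine kinase, differed by 0.0076 (-0.05 to 0.06). Myh4, the fast IIb myosin heavy chain, read 7762.9 to 16979.8 against 11568.0 to 17470.4, a difference of -0.15 (-0.37 to 0.06). Over the 24 sarcomere genes the intervals reached from -0.37 to 0.54, the upper end being Myh2, the IIa myosin (0.34, limma adjusted p = 0.0968). Actn2, an actinin, came nearest to passing (0.28, limma adjusted p = 0.0541) and passed in 5 of 30 fits that left out 1 array each. Jph2, a protein of the triad junction, spanned 59.9 to 911.4 and 76.0 to 883.3, so its interval of -1.32 to 0.81 leaves its difference unknown.

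Of the muscle lists, that of slow fibres held genes that passed. Of 9 measured, 7 passed, all higher in the S100a8-high arrays, with a list median of 2.20. Myh7, the slow myosin heavy chain, read 5.7 to 842.6 (median 298.2) in the high class and 3.2 to 422.2 (median 15.8) in the low class, a difference of 3.09 ± 0.78 (SE; limma adjusted p = 0.0383). Myl3, the slow essential light chain, read 493.1 to 3472.3 (median 2381.9) against 18.6 to 2844.5 (median 635.3), and Atp2a2, the slow calcium pump, 254.3 to 1000.8 (median 697.2) against 180.0 to 662.9 (median 222.8). The classes overlapped in all 9 genes, and arrays of both classes read both high and low for Myh7. Atp2a2 differed by 1.14 ± 0.23 (SE; limma adjusted p = 0.004), and Tnnt1, the slow troponin T, did not pass (2.29, limma adjusted p = 0.0721).

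Leaving out arrays ended some of the slow fibre calls. Myh7 kept its call in 10 of 30 fits that left out 1 array each, Myl3 in 24, Myl2, the slow regulatory light chain, in 26 and Atp2a2 in 30. The count of 7 was between 1 and 4 without any 1 of LF day 0 replicates 1 and 5, LF day 56 replicates 2, 3, 4, 5 and 8 and HF day 56 replicates 1, 2, 5, 6, 9 and 10. It was 0 within LF day 0 alone, 0 within LF day 56 alone, 4 within HF day 56 alone and 0 within the main spike-in set alone. With log2 Myh7 in the fit, 16 of 27 red cell precursor genes, 13 of 40 mitosis genes, 4 of 21 cartilage genes and 3 of 15 osteoblast genes still passed. The part of the slow fibre content in these differences was not tested further.

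**Figure D5:**
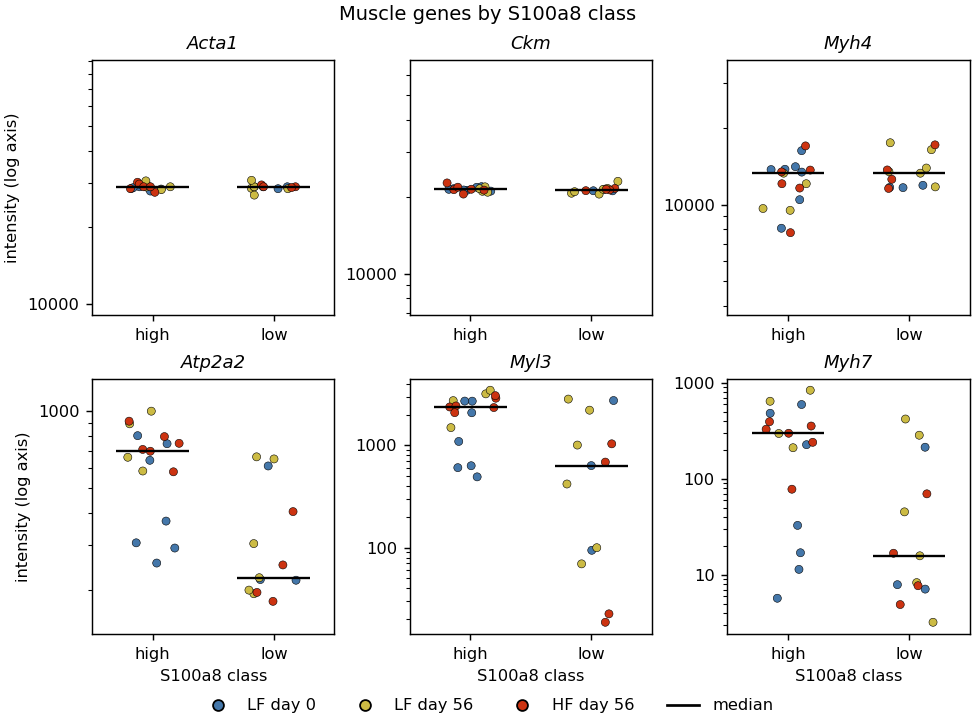
Intensity (vertical log axis, with its own range in each panel) of 6 muscle genes on every array, by S100a8 class and coloured by group, with the class median as a bar. Acta1 and Ckm lie in narrow bands in both classes, and the slow fibre genes Atp2a2, Myl3 and Myh7 have higher medians in the high class but overlap.

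Of the 183 named genes that passed, 91 stood in no list. Some of them are named here, chosen after their values were seen. Ctse, the aspartic protease cathepsin E, read 34.6 to 242.7 (median 117.6) against 6.0 to 11.7, a difference of 3.60 ± 0.25 (SE; limma adjusted p = 7.66e-12). Car2, a carbonic anhydrase of red cells and osteoclasts, read 64.4 to 335.4 against 23.0 to 37.3 (2.28 ± 0.17, SE; limma adjusted p = 3.39e-11). Gpx1, the glutathione peroxidase, read 1149.5 to 1724.6 against 869.3 to 1134.3, a small difference of 0.50 ± 0.05 (SE; limma adjusted p = 2.49e-07) that nevertheless left no overlap. Mmp13, the collagenase of bone and cartilage, read 4.6 to 10.5 against 2.9 to 4.6 (0.98 ± 0.12, SE; limma adjusted p = 4.2e-06).

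The genes lower in the S100a8-high arrays were few and the differences small. Only Zfp120, Maf and Palld had a mean intensity above 20. Maf, a transcription factor, read 276.5 to 550.9 against 434.1 to 564.7, a difference of -0.25 ± 0.06 (SE; limma adjusted p = 0.0407). Palld, the actin-binding protein palladin, differed by -0.22 and Zfp120, a zinc finger protein, by -0.30, with overlap in both. Maf and Zfp120 each kept their call in 11 of 30 fits that left out 1 array each, and Palld in 29.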

How the data were processed

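RNA of 30 quadriceps muscles, 1 mouse per biotin-labelled Affymetrix array, was analysed in 3 groups of 10 taken from the labels. The deposited values are linear intensities, 1 for each entry on each array. The authors computed them with GCRMA, per the submitters' processing notes; its version is not given in the sources used here. Values ran from 1.2 to 30599 in steps of 0.1, with array medians of 8.9 to 9.4. Differences of genes near background are uncertain. Values were put on the log2 scale with 0 as the pseudocount. The table had 16539 entries, of which 64 controls were left out; 15780 of the 16475 tested had 1 symbol and 695 had none.

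Arrays were put in the S100a8-high or S100a8-low class at an intensity of 100. Each entry was fitted in limma 3.58.1 (R 4.3.3; lmFit, eBayes) with class and group, and p-values were adjusted by Benjamini-Hochberg over all 16475 entries. An F test of class by group and the change from LF day 0 to LF day 56 with class in the fit also came from limma. Exact tests of the class counts were added in Python 3.11.15 (numpy 2.4.6, scipy 1.17.1, matplotlib 3.10.9). Permutation tests (100000 resamples) of array measures and of gene pairs were added there too. The fit was checked on simulated data. The number of mice limits the precision, as these are arrays. P-values measure the association with the class, which was itself read from the arrays.

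The classes, the 30 gene lists and the tests were chosen with earlier results of these data known. Genes were named by rule: the 10 largest rises and falls that passed, up to 4 members of smallest p per list, a fixed set of markers, the 5 smallest p of the interaction, and the few that passed or did not in a short list; others were named after their values were seen, among them genes without overlap and contrasting members of a list. Main adult globins are not reported here. The groups share replicate numbers, but each mouse has a separate number in the labels, and no pairing was used. Alternatives covered the group block, the replicate number, the spike-in set, variance priors, array weights, normalization, filters, pseudocount, thresholds, Myh7 as a covariate and leaving out each array.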

Additional observations from a re-analysis of the deposited data

Results flagged for a closer look

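Within each group of 10 arrays, the fixed marker genes were searched for a highest or lowest array that lay far from the next one by Dixon's criterion. Of 84 sets of a gene and a group, 5 were set apart by the criterion, near the about 1 in 20 that chance gives. That rate assumes normal values, whereas the groups mix S100a8-high and S100a8-low arrays and S100a8 is among the genes. The 5 values are therefore only listed. Mpo on LF day 56 replicate 9 read 7.24 on the log2 scale, and the next array 4.07. Elane on HF day 56 replicate 2 read 6.07 (next 3.79). Top2a on LF day 0 replicate 2 read 4.74 (next 3.1), and Acp5 on the same array read 6.66 (next 5.52). Myh4 on HF day 56 replicate 2 was the lowest of its group at 12.92 (next 13.5). All of these arrays belong to the S100a8-high class.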

How the results depend on the processing

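The 192 entries between the classes became 75 when entries had to exceed 20 on 5 or more arrays, 106 at a threshold of 0.01 and 96 with log2 Myh7 as a covariate. Single groups gave 14 (LF day 0), 78 (LF day 56) and 29 (HF day 56), and the spike-in sets 100 (main) and 11 (raised), with fewer arrays in each. Leaving out each array gave 150 to 219. Without the group block it was 220, with the spike-in set as a block 222, with trend and robust priors 180, with quantile normalization or median centring 187, and with a pseudocount of 16 it was 136. The replicate number as a replicate block gave 136; it does not pair the arrays, as same-numbered arrays correlated at -0.402 to 0.4 and 4 of 30 arrays matched their own number best. Under that block 0 of 9 slow fibre genes passed, against 15 of 27 red cell precursor and 18 of 40 mitosis genes.

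The interaction gave 2 entries without the arrays with S100a8 between 20 and 500, and 0 to 2 over the fits that left out 1 array. The 4 bone and cartilage genes lower at LF day 56 became 1 with a pseudocount of 16, 0 within the main spike-in set, and 3 to 5 when each array was left out. Within the raised set this comparison is parted from the class only through the few HF day 56 arrays, so no count is given. Without the 2 arrays farthest from the median, r was 0.234 for Camp with Hemgn, -0.124 for Hemgn with Top2a and -0.215 for Hemgn with Ibsp. The cause of these moves was not tested, other than that fewer entries or arrays entered some fits. Of 53 named genes that passed, 53 kept their call with the spike-in set as a block and with array weights, 47 with trend and robust priors, 41 with the replicate block and 39 with a pseudocount of 16. Fewer did so elsewhere: 36 at a threshold of 0.01 and 35 within the main spike-in set. With log2 Myh7 as a covariate 35 kept their call and 17 lost it. Single groups kept 11 (LF day 0), 31 (LF day 56) and 16 (HF day 56).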

Other observations

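Some genes that passed belong to processes that the sections above do not cover, and all were picked after their values were seen. Ecrg4, a secreted peptide precursor of cartilage and other tissues, read 43.6 to 128.4 (median 71.4) in the S100a8-high and 14.8 to 63.8 (median 20.5) in the S100a8-low arrays (1.63 ± 0.15, SE; limma adjusted p = 6.64e-09). Rsad2, the interferon-induced protein viperin, read 18.9 to 53.2 against 10.1 to 21.1 (0.89 ± 0.14, SE; limma adjusted p = 0.000107). Lmo2, a partner of the transcription factors of blood precursors, read 29.5 to 65.6 against 19.7 to 37.8 (0.62 ± 0.11, SE; limma adjusted p = 0.000573).

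Among muscle genes outside the lists, Lmod2, the actin filament protein leiomodin 2, read 681.5 to 1894.2 against 573.5 to 1147.2 (0.43 ± 0.10, SE; limma adjusted p = 0.03). Smtnl1, a smoothelin-like protein, read 403.3 to 719.0 against 281.7 to 535.7 (0.44 ± 0.09, SE; limma adjusted p = 0.00948). Esrrg, a nuclear receptor of oxidative muscle, read 55.1 to 102.6 against 42.7 to 71.6 (0.39 ± 0.10, SE; limma adjusted p = 0.0435). The classes overlapped in all of these genes.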
